A study of Saccharomyces cerevisiae with 6 samples.

Results

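The proteasome genes of Saccharomyces cerevisiae studied here are 32 genes for subunits of the core particle and the regulatory particle, out of 6002 protein-coding genes with a coding span in the gene table. A gene was counted as having a Rap1 peak if a peak summit lay inside its coding span, or up to 1000 bp before its coding start. The rule names the subunits and uses no measured value, although the list was drawn up with earlier results of these data known. Of the 32 genes, 22 had such a summit at 1 or more times. The other 10 had none, nor any overlap of a peak interval, at any time: SCL1, PRE3, PRE8, PRE9, RPT1, RPN1, RPN7, RPN9, RPN11 and RPN12. At 4 h alone, 37.1% of all genes had a coding summit and 37.6% an upstream summit. The share of all genes with either at any time is not given here, so the 22 cannot be read as high or low.

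Rap1 binding was measured by ChIP-seq, in which DNA crosslinked to Rap1 is recovered with an antibody and sequenced, in strain UKY403. In this strain synthesis of histone H4 is shut off in dextrose, so that nucleosomes become scarce as cells divide; the labels used here do not give the full genotype. All 3 groups were cultures of UKY403 grown in galactose and sampled 0, 2 or 4 h after the move to dextrose, with 2 biological replicates from separate time courses in each. The 4 h cells therefore differ from the 0 h cells in carbon source as well as in histone supply, and these cannot be told apart, since the isogenic control strain UKY412 was not analysed here.

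The proteasome degrades proteins tagged with ubiquitin. Its core particle is a barrel of stacked alpha and beta rings, with the proteolytic sites on the inner beta rings. The regulatory particle caps the barrel and has a base, with a ring of ATPases that unfold the substrate and scaffold and receptor proteins that bind ubiquitin, and a lid that removes the ubiquitin chain. In yeast most proteasome genes are activated together by the transcription factor Rpn4. Rap1 is best known as an activator of ribosomal protein genes and glycolytic genes and as a component of telomeres and silent chromatin.

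The deposited values were 1 list of peaks per time point, holding 1212, 2438 and 4073 peaks at 0, 2 and 4 h. After duplicates were removed, 983197, 1483679 and 2327099 tags remained behind them. With 1 list per time there is no spread between replicates, so no test compared the times and no p-value is given. Fold enrichment is the authors' own value per peak, the summit height over a background, and ranks are by fold enrichment within a list. At most peaks of proteasome genes this background was the same value within a list, 11.8, 17.8 and 27.9 tags at 0, 2 and 4 h. At the others it was higher. Heights are also given scaled to 1000000 kept tags, called scaled heights, with exact 95% Poisson intervals that cover counting error only. Heights cannot pass 292 in any list. More bound cells and more binding per cell cannot be told apart.

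Rap1 summits inside proteasome genes were nearly absent before the shutoff and were listed in 15 of the 32 genes after 4 h. At 0 h 1 gene, PUP1, had a coding summit (3.13%, against 4.13% of all protein-coding genes). At 2 h there were 9 genes (28.1%, against 21.0% of all genes) and at 4 h 15 genes (46.9%, against 37.1%). Counting only peaks that shared no base with a 0 h peak, called new, 8 genes had a new coding peak at 2 h (25%, against 17.5% of all genes) and 14 at 4 h (43.8%, against 34.2%). The shares of proteasome genes were thus near or somewhat above those of all genes, and whether they differ was not tested. More tags were kept at the later times, and the lowest scaled height listed was 26.4, 21.6 and 19.3 at 0, 2 and 4 h. Weaker peaks could therefore be listed later. Below the 0 h value were coding peaks of RPT6 at 2 h (24.3) and of PRE10 (21.9) and RPT4 (21.5) at 4 h.

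**Figure D1:**
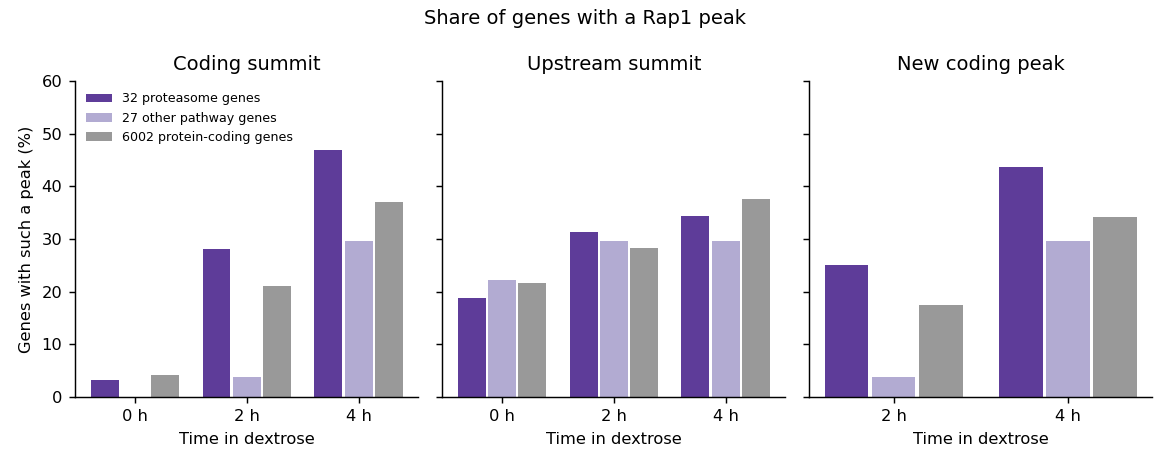
Percentage of genes with a coding summit, an upstream summit within 1000 bp, or a new coding peak in each list, for the 32 proteasome genes, 27 other genes of the ubiquitin and proteasome pathway and 6002 protein-coding genes. Coding summits were listed in 1, 9 and 15 proteasome genes at 0, 2 and 4 h.

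All 9 genes with a coding summit at 2 h had one at 4 h. Each of the 9 new coding peaks at 2 h overlapped a 4 h peak, as did 98.8% of the 1197 new coding peaks over all genes. The summits at 2 and 4 h were a median of 9 bp apart in the proteasome genes and 13 bp over all genes. The 6 genes that joined at 4 h were PRE7, PRE10, PUP2, RPT3, RPN5 and RPN13. Per kept tag, the summit was higher at 4 h than at 2 h in all 10 overlapping pairs of coding peaks, from 9 genes, by ratios from 1.13 to 1.75. Both 2 h peaks of RPN6 were paired with the same 4 h peak. The ratio of 1.75 was from the RPN6 pair with summits 118 bp apart, and the next highest was 1.58, in RPT6. In 6 of the 10 pairs, both RPN6 pairs among them, the counting interval of the ratio excluded 1. Over 1404 coding peaks of all genes the median ratio was 1.25, and 78.1% were above 1.

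The median fold enrichment of the coding peaks was 2.77 at 2 h and 3.11 at 4 h, beside 3.14 and 2.90 over all coding peaks of those lists. Most of the peaks in proteasome genes were thus of ordinary strength, and 3 genes stood above the rest. These were RPT5, PUP1 and RPN2. The same 3 kept a coding summit at both later times when each list was held to its 1212 peaks of highest -log10 q. That value rests on the same heights and backgrounds as fold enrichment, so this is not separate support.

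Among the ATPase genes of the base, 4 of 6 had a coding summit at 2 h and 5 of 6 at 4 h, with none at 0 h. The shares of all genes were 21.0, 37.1 and 4.13% at 2, 4 and 0 h. RPT1 was the gene without one. RPT5 held the strongest new peak of all proteasome genes. It was not listed at 0 h, had a fold enrichment of 7.01 at 2 h (scaled height 88.3, interval 73.8 to 105) and 8.49 at 4 h (scaled height 110, interval 97.3 to 125). The lowest scaled height listed anywhere at 0 h was 26.4. The 4 h peak spanned chrXV:545434-545888 (sacCer3), with its summit 664 bp into the gene, close to the middle of the 1305 bp span, and its rank went from 502 to 142. The 2 h summit lay 3 bp away.

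RPT4 had a summit 485 bp after its start at 2 h (fold enrichment 2.82) and 495 bp after it at 4 h (4.32), where a second, weak summit was listed at 1085 bp (1.76). RPT2, whose product opens the gate of the core particle, had values of 2.73 and 3.87 at 711 and 720 bp. RPT6 had 1.97 at 527 bp at 2 h, among the weakest peaks of that list, and 2.75 at 536 bp and 3.0 at 1063 bp at 4 h. RPT3 was listed at 4 h only, with 3.56 at 445 bp. All these genes except RPT3 had the same site listed at both times, with the 2 and 4 h summits within 10 bp. Leaving aside the second summits of RPT4 and RPT6, the 4 h summits of the 5 genes lay between 34.6% and 54.8% of the way along their spans. The summits left aside lay at 82.6% in RPT4 and at 87.3% in RPT6, where it was the stronger of the 2. Over all coding summits at 4 h the median position was 46.9%.

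The 4 scaffold and ubiquitin receptor genes of the base had 1 coding summit at 2 h and 2 at 4 h, beside 21.0 and 37.1% of all genes with one. RPN2, the scaffold that carries the receptor Rpn13, had no coding summit at 0 h, although the interval of a 0 h peak with its summit elsewhere reached into the span. It had 4.78 at 2 h (scaled height 68.7, interval 56.1 to 83.5) and 5.59 at 4 h (81.2, interval 70.1 to 93.7), at 1458 and 1463 bp of its 2838 bp span. RPN13 itself, with the shortest span of all members (471 bp), had a 4 h summit of 2.38 at 443 bp, near its end. RPN10, the other receptor, had no coding summit. RPN1, the other scaffold and the longest member (2982 bp), had no peak at any time.

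Of the 8 lid genes, 2 had a coding summit at 2 h and 3 at 4 h, beside 21.0 and 37.1% of all genes. RPN6, a scaffold that contacts the core particle, had a pair of weak peaks at 2 h (2.44 at 406 bp and 2.18 at 282 bp) and 1 wider peak of 3.83 at 400 bp at 4 h that covered both. RPN8, the partner of the deubiquitinase, had its summit 92 bp after the start at both times (2.71 and 3.11). This summit is also 453 bp before the start of the divergent gene GPN2. RPN5 had 2.38 at 1153 bp at 4 h. RPN11, the deubiquitinase itself, had none.

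**Figure D2:**
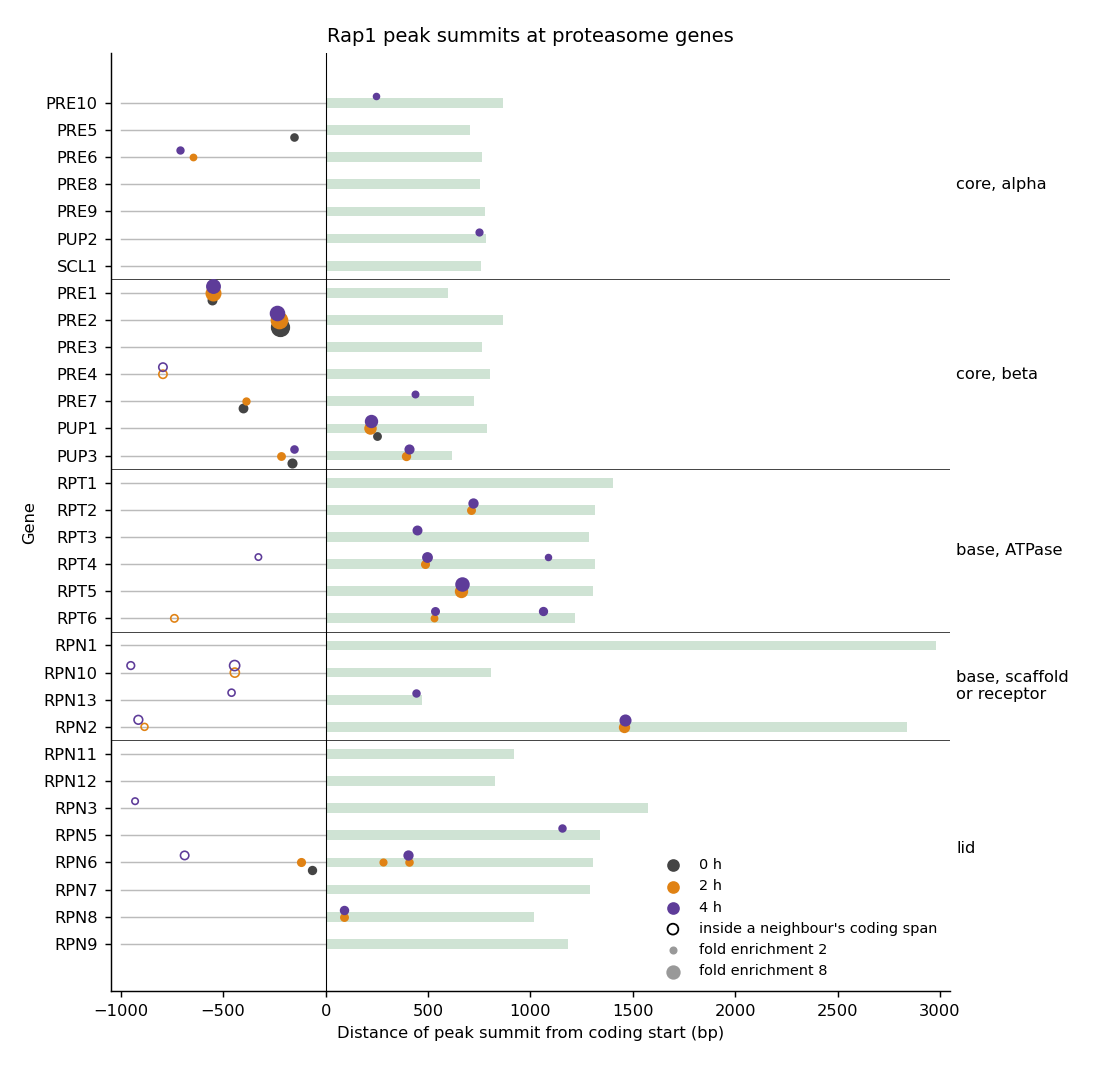
Position of each peak summit relative to the coding start (bp, x axis) for the 32 genes, with coding spans as green bars; point area grows with fold enrichment and colour gives the time. In 9 genes a filled point in the span at 2 h has a 4 h point at nearly the same place, 6 further genes have one at 4 h only, and open points are upstream summits inside a neighbour's coding span.

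Genes of the core particle had coding summits in 1, 2 and 5 of 14 members at 0, 2 and 4 h. Those of the regulatory particle had them in 0, 7 and 10 of 18, beside 4.13, 21.0 and 37.1% of all genes. Core genes are shorter, with a median span of 765 bp against 1298 bp. Per kb of coding span, the core and the regulatory particle had 0.189 and 0.328 summits at 2 h, beside 0.165 over all genes, and 0.473 and 0.492 at 4 h, beside 0.337. By class at 4 h the density was 0.893 in the ATPase genes, 0.582 in the beta genes, 0.370 in the alpha genes, 0.317 in the lid genes and 0.282 in the scaffold and receptor genes. These densities rest on 7, 3, 2, 3 and 2 summits, so single peaks weigh heavily.

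**Figure D3:**
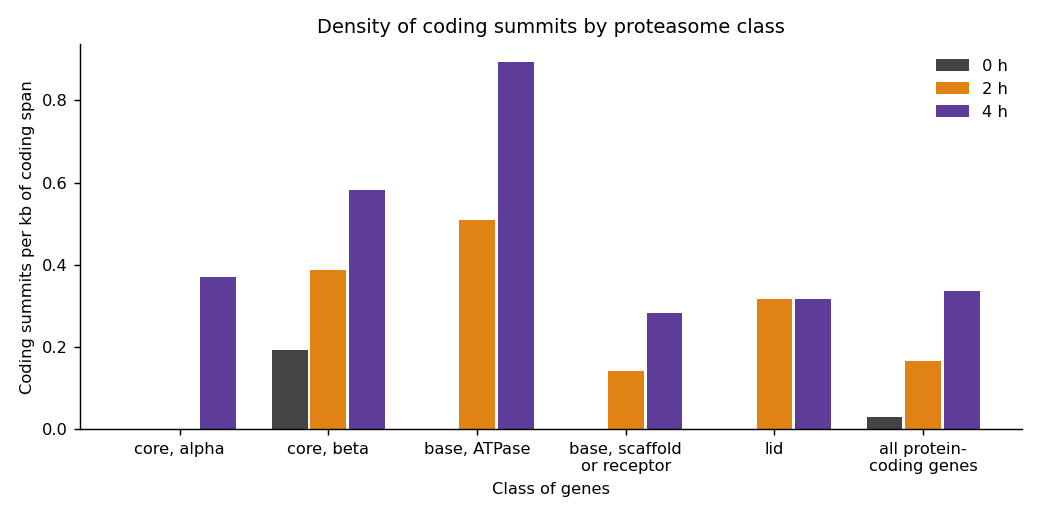
Coding summits per kb of coding span (y axis) at 0, 2 and 4 h in 5 classes of proteasome genes and in all protein-coding genes. At 4 h the ATPase genes of the base are highest, at 0.893, beside 0.337 over all genes.

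In the beta ring, PUP1, which encodes the subunit with trypsin-like activity, was the single proteasome gene with a coding summit in all 3 lists. Its fold enrichment went from 2.65 to 6.06 at 2 h and 7.05 at 4 h, with summits 253, 218 and 220 bp after the start of a 786 bp span. Its scaled height was 33.6 at 0 h (interval 23.1 to 47.1), 76.2 at 2 h (62.8 to 91.6) and 87.2 at 4 h (75.6 to 100). The later intervals did not overlap the first. The ratio to 0 h was 2.27 at 2 h (1.53 to 3.45) and 2.60 at 4 h (1.79 to 3.88). Across all 0 h peaks with an overlapping later peak, the median of this ratio was 0.768 over 1041 peaks at 2 h and 0.607 over 1053 at 4 h, and PUP1 ranked 41 and 23. Strong 0 h peaks are held down in this comparison by the limit on heights. The PUP1 summit also lies 633 bp before the start of PET123, a divergent neighbour that encodes a mitochondrial ribosomal protein, and before the start of NFI1, a gene for a SUMO ligase, so the peak falls within the upstream windows of both. The 4 h coding summits of RPN6 and RPN13, and the nearer to the start of the 2 in RPT4 and in RPT6, likewise lay within 1000 bp before a divergent coding start, of PMT1, DCK1, GCD1 and ALG13.

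PUP3, a beta subunit without proteolytic activity, had a new coding peak of 3.03 at 2 h and 3.70 at 4 h, at 395 and 405 bp. PRE7, another such subunit, had one of 2.06 at 4 h. In the alpha ring no coding summit was listed before 4 h, when PUP2 (2.21, 751 bp into a 783 bp span) and PRE10 (1.80) had weak ones.

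**Figure D4:**
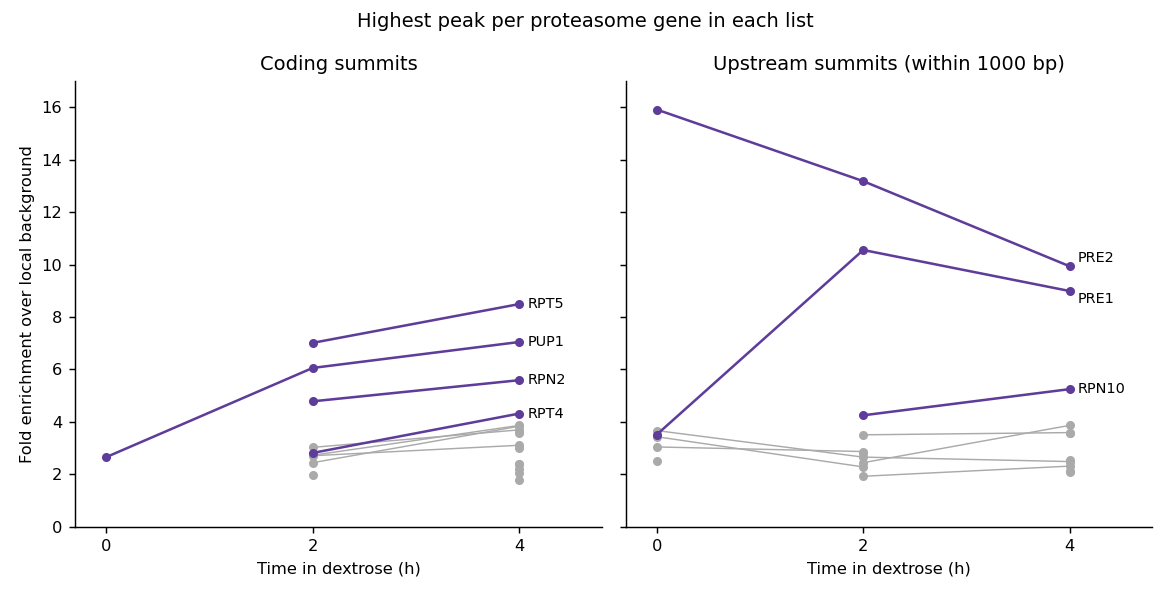
Fold enrichment (y axis) of the highest coding peak (left) and upstream peak (right) per proteasome gene in the lists at 0, 2 and 4 h (x axis); lines join peaks whose intervals overlap, and purple marks the genes named. RPT5 reaches 8.49 among coding peaks at 4 h, and PRE1 goes from 3.51 at 0 h to 10.6 at 2 h.

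Upstream of proteasome genes the counts by the 1000 bp rule were near those of all genes, but fewer remained at 4 h when summits inside other genes were left out. A summit within 1000 bp before the coding start was listed for 6 genes at 0 h (18.8%, against 21.7% of all genes), 10 at 2 h (31.3%, against 28.2%) and 11 at 4 h (34.4%, against 37.6%). All 6 of the 0 h summits lay between genes. At 2 h 4 of 10 upstream summits, and at 4 h 8 of 12, lay inside the coding span of a neighbouring gene. Without those, the genes with an upstream summit numbered 6, 6 and 4 of 32 at 0, 2 and 4 h, beside 19.5, 20.0 and 22.2% of all genes. The median fold enrichment of upstream peaks was 3.47, 2.83 and 3.28 at 0, 2 and 4 h, beside 5.62, 4.09 and 3.35 over all upstream peaks of those lists.

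The strongest was the peak between PRE2, which encodes the subunit with chymotrypsin-like activity, and RPL11A, a divergent ribosomal protein gene. It ranked 66, 41 and 16 in the lists, with fold enrichments of 15.9, 13.2 and 9.93. The summit lay 224 to 237 bp before PRE2 and 364 to 377 bp before RPL11A, so it cannot be assigned to PRE2 alone. Its heights of 290, 292 and 292 were at or near the limit. The falls in fold enrichment and in scaled height (295, 197 and 125) therefore cannot be read as less binding. The interval of the peak also reached into the PRE2 coding span at each time.

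PRE1, which encodes a beta subunit without proteolytic activity, had a weak upstream peak at 0 h that was among the strongest later. Its fold enrichment went from 3.51 to 10.6 at 2 h and 8.99 at 4 h, and its rank went from 794 to 202 and 83. The scaled height was 44.8 before the shutoff (interval 32.5 to 60.1), 148 after 2 h (129 to 169) and 115 after 4 h (102 to 130). The ratio to 0 h was 3.30 at 2 h (2.38 to 4.67) and 2.57 at 4 h (1.87 to 3.63), ranks 9 and 27 among the same 1041 and 1053 peaks. The ratio from 2 to 4 h was 0.780 (0.650 to 0.937), with heights of 219 and 268. The limit of 292 left little room above the 4 h height, although more tags were kept at 4 h than at 2 h. The interval covers counting error only and does not allow for this limit. The ratio from 2 to 4 h therefore cannot be read as less binding. The ratio from 0 to 4 h may also be held down by the limit.

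The 3 summits at PRE1 lay 556, 552 and 549 bp before its start, within the 0 h interval chrV:177077-177383 (sacCer3). No other protein-coding gene had its start within 1000 bp of this summit. Genes that encode no protein were not checked. The protein-coding gene on the left, TIR1, encodes a cell wall mannoprotein, points the same way as PRE1 and ends 1267 bp from the 0 h summit.

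**Figure D5:**
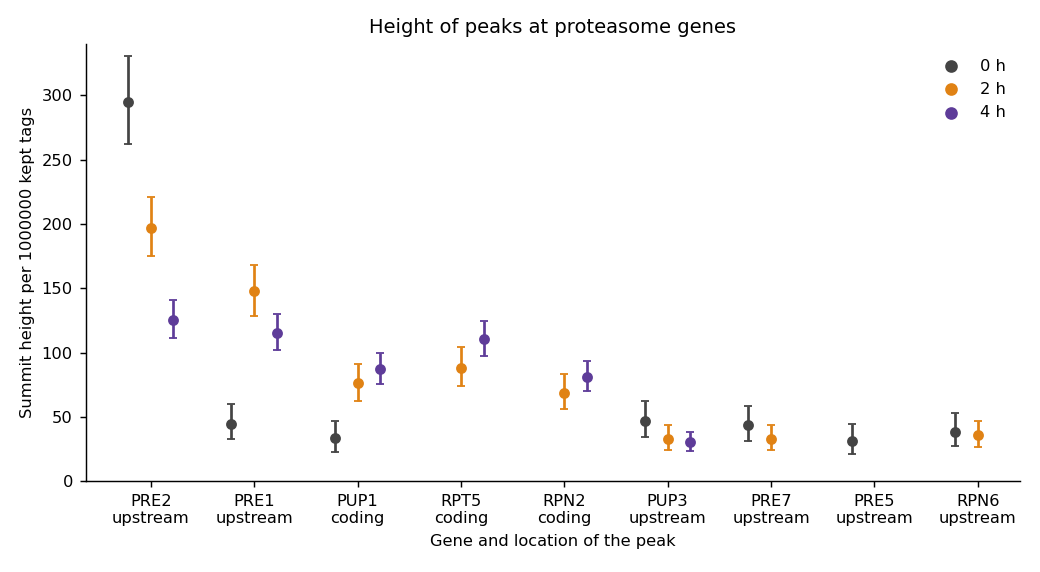
Summit height per 1000000 kept tags (y axis) of peaks at proteasome genes at 0, 2 and 4 h; bars are exact 95% Poisson intervals, for counting error only, and a missing point means that no peak was listed there. PRE1 and PUP1 are higher at 2 and 4 h than at 0 h, while the peak shared by PRE2 and RPL11A is at the limit of the height.

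The other 4 upstream sites of the 0 h list were weak. The peak upstream of PUP3 had values of 3.67, 2.66 and 2.49. Its scaled height was 46.8 at 0 h and 30.5 at 4 h, a ratio of 0.652 (0.444 to 0.967). The ratio at 2 h was 0.706 (0.462 to 1.08). Over all 0 h peaks with an overlapping later peak, the medians were 0.768 at 2 h and 0.607 at 4 h. The limit on heights holds strong peaks down in these medians. The peak between PRE7 and the uridine permease gene FUI1 had 3.44 and 2.28 and was not listed at 4 h. The peak between RPN6 and the mannosyltransferase gene PMT1 had 3.05 and 2.87 and overlapped no 4 h peak. The peak between PRE5 and the lipase gene TGL3 had 2.50 at 0 h and no later counterpart. Of the 7 peaks at proteasome genes at 0 h, including that in PUP1, 4 overlapped a peak in both later lists, beside 83.1% of all 1212 peaks at 0 h.

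The remaining upstream summits were new at 2 or 4 h, and all but that of PRE6 lay in neighbouring coding spans. The highest was upstream of RPN10, with 4.25 at 2 h and 5.25 at 4 h. It sat 444 bp before RPN10 at 4 h and inside NBL1, a gene on the other strand, and 213 bp before the start of AIM46. RPN2 had summits of 2.44 and 3.87 that lay in SER33, and PRE4, 3.51 and 3.59 in RET2, the gene between PRE4 and RPN12. RPN6 had 3.59 in PMT1 at 4 h, RPT6 2.80 in ALG13 at 2 h, and RPN13, RPN3 and RPT4 had 2.56, 2.14 and 2.07 at 4 h in DCK1, GPA2 and GCD1. PRE6 had 1.93 and 2.31, at 72 and 10 bp past the end of RPP2A, a gene of the ribosomal stalk.

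Some summits lay close to the limit of 1000 bp. Just inside it were the 4 h summits 930 bp before RPN3 (2.14) and 951 bp before RPN10 (2.97). Just outside were 4 h summits 1118 bp before PUP1 (2.15), 1129 bp before PRE4 (2.33) and 1286 bp before RPN9 (3.01), a gene with no summit within the limit. A site before RPT6, beyond the divergent gene ALG13, had summits at 1276 bp at 0 h (6.79) and at 1279 bp at 2 h (3.73). The search for summits outside the limit ended little beyond these positions. Whether this site was listed at 4 h with a summit farther out was not determined.

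In the wider pathway, 27 genes for proteasome assembly, proteasome-bound factors, substrate delivery and ubiquitin, coding summits were listed in 0, 1 and 8 genes at 0, 2 and 4 h (0, 3.70 and 29.6%, against the 4.13, 21.0 and 37.1% of all genes). Upstream summits were listed in 6, 8 and 8 (22.2, 29.6 and 29.6%, against 21.7, 28.2 and 37.6%). The single gene at 2 h was HUL5, a proteasome-bound ubiquitin ligase, with 5.74 at 2 h and 5.80 at 4 h, 407 and 385 bp after its start. At 4 h it was followed by NPL4 (3.80) and CDC48 (3.02), whose products form the segregase that extracts ubiquitinated proteins, RAD23 (3.33), a shuttle receptor, UBP6 (2.59) and BLM10 (2.49). CDC48 held 3 coding summits. RPN4, the gene of the transcription factor for proteasome genes, had no coding summit and a weak upstream peak in all 3 lists, with 3.65, 3.13 and 2.83.

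The strongest upstream peaks of this list, named after their values were seen, were at UBI4 and POC4. UBI4, the polyubiquitin gene, had 16.4, 12.7 and 8.46 with the summit 307 or 308 bp before its start. POC4, which encodes a chaperone of core assembly, had 11.4, 10.02 and 7.90 at a site shared with the divergent gene KES1. Heights at 0, 2 and 4 h were 246, 276 and 278 at UBI4, and 278, 287 and 288 at POC4. These are close to the limit of 292, so the falling fold enrichments cannot be read as less binding. The highest fold enrichment of any peak also fell, from 19.9 to 14.6 and 10.1.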

How the data were processed

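The measurements were 3 deposited peak lists for Rap1 ChIP-seq in UKY403. Per the file headers they were made by MACS2 version 2.0.10.20130712 without an input library; tags were extended by 147 bp, duplicates were reduced to 1 tag per position and strand, the local background spanned 10000 bp and the q threshold was 0.05. The submitters' processing notes name Bowtie, SAMtools and sacCer3. The headers name 1 alignment file per list and do not say whether it pools the replicates. Per the file headers, the height is a signal of extended tags not scaled for depth, the fold enrichment a ratio to background with 1 tag added to both, and -log10 q a per-peak value of the authors' caller. Uneven shearing or mapping is not corrected without input. The 3 columns of -log10 p were not used; p for the scaling by depth was recomputed from height and fold enrichment.

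Coding spans were those of RefSeq for assembly R64 (all 32 members and 27 pathway genes matched by symbol), with strand from the systematic name; spans include introns. Intervals for heights are exact Poisson, and for ratios of heights per kept tag exact binomial, at 95%. Every member with a summit is named; of the pathway list, RPN4 and the 6 genes with the highest 4 h coding fold enrichment. Members and lists were chosen with earlier results of these data known. Assignment and overlap were tested on simulated peaks. Python 3.11.15, pandas 2.3.3 and SciPy 1.17.1 were used. The planned motif search in promoters was not run, because no sequence was used here. A neighbouring gene of one upstream peak is not reported here.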

Additional observations from a re-analysis of the deposited data

How the results depend on the processing

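Of 52 counts recomputed under the alternatives, 33 stayed within 1.5 times the value reported, 18 were lower and 1 was higher. The numbers of genes with a coding summit at 2 and 4 h, or a new coding peak, stayed within that range at -log10 q of at least 5, with any overlap of the interval, with summits at least 100 bp inside both ends, under both other definitions of a new peak, and after scaling later peaks to the kept or all tags of 0 h. At 2 and 4 h, scaling by kept tags left 7 and 13 genes with a new coding peak (16.5 and 29.3% of all genes). Scaling by all tags left 7 and 12 (15.7 and 28.2%). At a fold enrichment of at least 3, coding summits were in 0 genes at 0 h and 4 at 2 h (3.23 and 12.1% of all genes), new coding peaks in 3 and 9 (8.93 and 17.8%) at 2 and 4 h, and upstream summits in 4 and 6 (20.3 and 23.7%). With lists of equal length, 3 genes had a coding summit (9.46 and 11% of all genes), 3 an upstream summit (17.4 and 15.7%) and 2 a new coding peak (6.30 and 8.03%) at each of 2 and 4 h, so the coding count was then not above that of all genes. With any overlap of the interval, 3 genes had a coding peak at 0 h (10.1% of all genes), PRE2 and RPN2 joining PUP1. Upstream summits at 2 and 4 h were in 5 and 5 genes with a window of 500 bp (16.7 and 20.5% of all genes). With 250 bp they were in 3 and 2 (6.63 and 8.30%). Without summits in other coding spans they were in 6 and 4 (20.0 and 22.2%). PRE1 leaves the count at 500 bp because its summit is farther away. By construction these settings count fewer peaks, and any overlap counts more. No paired analysis was possible because each time point has 1 list. No replicate could be left out for the same reason. Duplicate removal left 40.4, 30.6 and 37.8% of the tags. The numbers of kept tags were 983197, 1483679 and 2327099, so weak peaks were not equally detectable in the lists.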
